A study of Arabidopsis thaliana with 13 samples.

Results

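*ATS3* (AT5G07190) and its 2 relatives AT5G62200 and AT5G62210 were followed through dry seeds of 3 sizes and through single imbibed seeds. They are 3 genes of 37184 in the dry-seed table and of 37336 in the single-seed table. *ATS3* was selected on its measured dry-seed levels, as the gene with the steepest gradient between small and large seeds, so its dry-seed values are a description and carry no test. AT5G62200 and AT5G62210 were taken for kinship and not for their values, and the single-seed libraries chose none of the 3. All seeds were wild-type Col-0 *Arabidopsis thaliana*. Per the study, seeds used for dormancy induction were after-ripened and stored dry. For the dry-seed libraries its methods name dry seeds and do not state after-ripening. Small, medium and large dry seeds were each sequenced as pooled seeds from 4 seed pools, giving 12 libraries, and libraries with the same number came from the same pool. In the single-seed experiment each seed had its own barcode, and 32 seeds were combined per library. Small and large seeds had either been held for 7 days on wet paper at 30 °C in the dark, which induces secondary dormancy, and then moved to constant light at a lower temperature for 24 h (7d + 24h), or been held for 3 days in the dark at 30 °C (3d). Induction length, light and temperature thus differ together between 7d + 24h and 3d, and their parts cannot be told apart. Each of these 4 groups had 3 libraries, or 384 seeds in all. Per the study's methods the 96 seeds of a group were divided into these 3 libraries, so they are not separate seed pools, and p-values measure only the spread between divisions of the seeds, which may be technical.

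ATS3 proteins are small proteins of a domain family related to the PLAT/LH2 fold, which is also found in lipoxygenases. *ATS3* is known as a gene transcribed in the embryo while the seed fills, at the stage when storage proteins and oil body proteins accumulate, and it was described together with *ATS1*, which encodes an oil body caleosin. The biochemical role of the family is not settled. Embryo genes of the filling stage are typically switched on by B3 factors such as ABI3, FUS3 and LEC2, which bind RY elements, and by bZIP factors, which bind ACGT cores. Their mRNAs are stored in the dry seed and lost on the way to germination.

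In the RefSeq annotation of TAIR10.1, 4 genes carry the product name embryo-specific protein 3: the 3 members and AT2G41475, which serves below as the annotated relative outside the set. *ATS3* lies on chromosome 5 at 2237474 to 2238720 on the plus strand, with 3 exons and a protein of 213 residues. AT5G62200 (24984048 to 24985895, minus strand, 190 residues) and AT5G62210 (24986294 to 24987811, minus strand, 223 residues) are neighbours on the same chromosome, 398 bases apart. AT2G41475 lies on chromosome 2 at 17294978 to 17296565 and encodes 179 residues. The protein closest to ATS3 was that of AT5G62210, with 57.3% identity over 199 aligned residues, against 39.8% over 176 for AT5G62200 and 37.0% over 165 for AT2G41475. AT5G62200 and AT5G62210 shared 52.3% of 151 aligned residues. The 3′ end of AT5G62200 is 3 bases from AT5G62190, the next gene on its strand, so reads that run past either end cannot be assigned with certainty.

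The 250 bases before the annotated start are shown for the 3 members, whose patterns over size and time differ, and for *SESA2* (AT4G27150), the 2S albumin gene whose dry-seed pattern was most like that of *ATS3*. Sequences are from TAIR10.1, 5′ to 3′ on the gene's strand, and capitals mark RY elements (CATGCA) and ACGTG cores, each searched on both strands. A G-box, CACGTG, holds the ACGTG core on both strands and appears as 1 block.
ATS3, chr5:2237224-2237473, plus strand: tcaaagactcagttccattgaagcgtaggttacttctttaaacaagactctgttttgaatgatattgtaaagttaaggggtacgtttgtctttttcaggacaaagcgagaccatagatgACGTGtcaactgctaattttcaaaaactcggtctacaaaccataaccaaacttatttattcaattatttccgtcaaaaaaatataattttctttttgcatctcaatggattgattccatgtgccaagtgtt
AT5G62200, chr5:24985896-24986145, minus strand: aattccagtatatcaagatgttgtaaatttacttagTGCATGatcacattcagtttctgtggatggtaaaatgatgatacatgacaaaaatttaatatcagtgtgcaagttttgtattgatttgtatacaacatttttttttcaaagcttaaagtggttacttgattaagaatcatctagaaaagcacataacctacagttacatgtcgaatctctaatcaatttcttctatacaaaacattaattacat
AT5G62210, chr5:24987812-24988061, minus strand: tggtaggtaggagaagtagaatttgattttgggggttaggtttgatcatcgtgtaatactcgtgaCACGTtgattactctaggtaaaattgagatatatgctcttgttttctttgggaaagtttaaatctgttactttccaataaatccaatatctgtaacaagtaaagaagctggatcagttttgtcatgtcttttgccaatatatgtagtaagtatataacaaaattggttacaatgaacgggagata
SESA2, chr4:13609091-13609340, plus strand: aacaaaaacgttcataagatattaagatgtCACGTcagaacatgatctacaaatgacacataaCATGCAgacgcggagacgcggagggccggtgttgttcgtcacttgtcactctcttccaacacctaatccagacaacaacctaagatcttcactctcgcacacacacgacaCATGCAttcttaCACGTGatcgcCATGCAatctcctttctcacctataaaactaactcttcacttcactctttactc

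*ATS3* had no RY element in this window and an ACGTG core at position -131, counted from the annotated start. AT5G62210 had no RY element and 1 ACGTG core, at position -185, and AT5G62200 had 1 RY element, at position -214, and no ACGTG core. *SESA2* had 3 RY elements, a G-box and a further ACGTG core. AT2G41475 had neither motif. Of 27443 protein-coding genes, 8.4% held an RY element in the same window and 22.9% an ACGTG core. Among the 16 genes of the seed storage and oil body list, 15 held an RY element and 10 an ACGTG core. A match is a run of letters and not a shown binding site, and bases farther upstream were not searched.

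Dry libraries held 554305 to 2079317 counts on genes, single-seed libraries 2326352 to 5851052, and single seeds 3962 to 463684 (median 100856.5). Levels below are in CPM, a gene's count scaled to an equal total of counts on genes in every library, whereas differences are log2 fold changes from edgeR on the TMM scale, in which most tested genes are taken not to change, with the false discovery rate (FDR, Benjamini-Hochberg) over all genes tested and a threshold of 0.05. When library totals replaced the TMM factors, the median of all tested genes moved to -0.40 between small and large dry seeds, to 1.02 between 7d + 24h and 3d in small seeds and to 1.07 in large seeds. The split of called genes between small and large dry seeds was then 189 higher and 2567 lower, against 695 and 514 with TMM. For the change with time it was 5090 higher and 280 lower in small seeds, against 2236 and 2188, and 5035 and 379 in large seeds, against 2303 and 2425. Changes are therefore given relative to this shift wherever it decides a call. Storage and oil body mRNAs of the list made up 19.5 to 26.2% of counts in small, 14.5 to 19.3% in medium and 11.9 to 13.6% in large dry seeds, so the libraries held mRNAs of seed filling. In dry seeds the 10 embryo markers summed to 62.4 to 97.3 CPM, the 10 endosperm markers to 25062 to 42438 CPM, nearly all of it from *EPR1*, a gene of an extensin-like endosperm protein, and the 6 seed coat markers to at most 6.80 CPM. *SHR* among the embryo markers, *RGE1* and *ALE1* among the endosperm markers and *TT2* and *TT8* among the seed coat markers had 0 counts in all dry libraries. In single seeds these sums were 265 to 409 CPM for embryo, 391 to 988 CPM for endosperm and 12.5 to 17.1 CPM for seed coat markers at 7d + 24h, and 111 to 171 CPM for embryo, 104 to 277 CPM for endosperm and 2.04 to 4.48 CPM for seed coat markers at 3d. The endosperm sum at 7d + 24h was carried by *EXPA2*, an expansin gene, which rose by 10.96 in small and 10.55 in large seeds in the wider gene set described below. *MAN7*, a mannanase gene, also rose there, whereas *EPR1* changed by -2.15 in small seeds (FDR 8.12e-06) and by -1.45 in large seeds (FDR 0.000336). Of the 10 embryo markers 4 rose and 1, *ATML1*, fell in small seeds in that set, and 5 rose and 2 fell in large seeds. Of all genes there, 30.6% rose and 26.0% fell in small seeds, and 33.7% and 28.2% in large seeds. With library totals, where most called genes rose, 7 embryo markers rose in small and 5 in large seeds, and none fell. Of the 6 seed coat markers only *MUM4* was tested, and it rose. The part of these cell types in the changes with time was not tested. In whole seeds, fewer cells of a type and less RNA per cell cannot be told apart.

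*ATS3* was high in small dry seeds, intermediate in medium seeds and low in large seeds in each of the 4 pools. In pools 1 to 4 it measured 155, 170, 179 and 96.4 CPM in small seeds. In medium seeds of the same pools it measured 57.3, 48.5, 28.2 and 37.7 CPM, and in large seeds 19.7, 5.77, 19.0 and 20.1 CPM. No value of one size overlapped those of another, which the choice of *ATS3* on these libraries favours. The lowest small-seed level, that of pool 4, was above every medium library. How many other genes separate the sizes was not counted. The means were 150 ± 37.1, 42.9 ± 12.7 and 16.1 ± 6.93 CPM (SD, n = 4 each) in small, medium and large seeds. These levels rest on 63 to 363, 29 to 71 and 12 to 34 counts per library.

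The within-pool ratio of small to large seeds was 7.87, 29.4, 9.41 and 4.79 in pools 1 to 4. The wide ratio of pool 2 came from its large-seed library, which had 12 counts of *ATS3* among 2079317. On the TMM scale the log2 difference was 3.73 between small and large seeds, 2.07 between small and medium and 1.67 between medium and large. With library totals these values were 3.35, 1.83 and 1.53. By size of the difference between small and large seeds *ATS3* stood first of 8234 genes tested, and the next was AT3G60730, a gene of the pectin methylesterase inhibitor superfamily, at 3.15. Of the genes tested, 14.7% were called between small and large seeds, 3.51% between small and medium and 0.146% between medium and large. Nothing is read from *ATS3* against these shares, because the same libraries chose it.

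**Figure D1:**
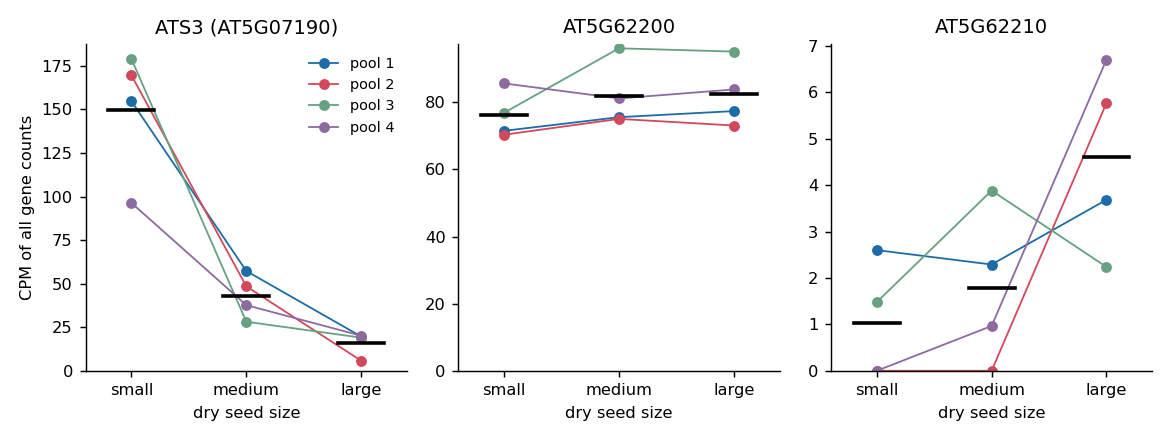
CPM of the 3 members (vertical axes) in small, medium and large dry seeds, with 1 coloured line per seed pool and a black bar at the mean of the 4 pools. *ATS3* steps down with size in every pool, AT5G62200 stays between 70.4 and 96.1 CPM, and AT5G62210 is at or under 6.71 CPM throughout.

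AT5G62200, for which a separate role is not known, showed no such gradient. It measured 71.5, 70.4, 76.9 and 85.7 CPM in small seeds of pools 1 to 4. In medium seeds it measured 75.6, 75.1, 96.1 and 81.2 CPM, and in large seeds 77.4, 73.1, 95.1 and 83.8 CPM. The 3 sizes overlapped, and pool 3 was the highest in medium and large seeds. The log2 difference by edgeR was 0.26 (SE 0.15, 95% interval -0.04 to 0.57, FDR 0.262) between small and large seeds, 0.14 (FDR 0.699) between small and medium and 0.12 (FDR 0.94) between medium and large. None was called, and with library totals the first was -0.11, so its direction rests on the scaling.

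The count of *ATS3* per count of AT5G62200 within a library does not depend on the scaling. It was 1.13 to 2.41 in small, 0.293 to 0.758 in medium and 0.0789 to 0.254 in large dry seeds. The 3 ranges did not overlap, which the choice of *ATS3* favours.

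AT5G62210, the member whose protein is most like ATS3, was scarce in dry seeds. It had 2, 0, 3 and 0 counts in small seeds of pools 1 to 4, 2, 0, 4 and 1 in medium seeds, and 3, 12, 4 and 6 in large seeds. As means these were 1.02 ± 1.26, 1.78 ± 1.68 and 4.60 ± 2.02 CPM (SD, n = 4 each), so the order by size ran opposite to that of *ATS3*, with small and large seeds overlapping. The gene did not pass the filter on low counts. An exact two-sided permutation test of CPM gave p = 0.0571 for small against large seeds (0.171 adjusted over the 3 size pairs), where 4 against 4 libraries can reach 0.0286. Within pools the CPM was lower in small than in large seeds in 4 of 4 pools, and an exact two-sided sign-flip permutation test of these differences gave p = 0.125, the smallest that 4 pools allow. Neither test passed the threshold, and the paired one could not. AT2G41475 was near absent from dry seeds, with 1 count in all small, 0 in all medium and 1 in all large libraries; 0 of 4403638 counts allows up to 0.681 CPM, by counting error alone.

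The genes whose dry-seed pattern was most like that of *ATS3* were mostly genes of storage and lipid-associated proteins. By Pearson correlation of log2 CPM over the 12 libraries, among 7616 genes with at least 10 CPM on average, the 5 closest were *SESA2* (r = 0.98), *OLEO4*, an oleosin that coats oil bodies (0.97), *LTP2*, a lipid transfer protein (0.97), AT1G03890, a cupin of the cruciferin type (0.97), and AT1G71695, a peroxidase (0.96). These r values used log2 CPM on the TMM scale, which differs from the CPM printed here. The 12 points share pools, depth and the size gradient by which *ATS3* was picked, so r is a description. AT5G62200 came at rank 1020 (r = 0.56) and *ATS1*, the caleosin gene described with *ATS3*, at rank 530 (r = 0.70). *SESA2* averaged 4732 ± 1340 in small, 1570 ± 303 in medium and 744 ± 197 in large seeds, all in CPM (SD, n = 4 each), whereas *ATS1* averaged 793 ± 120 CPM in small seeds, 778 ± 86.9 in medium seeds and 768 ± 53.9 in large seeds. A gene as steady in CPM over the sizes as *ATS1* lies higher in small than in large seeds on the TMM scale.

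**Figure D2:**
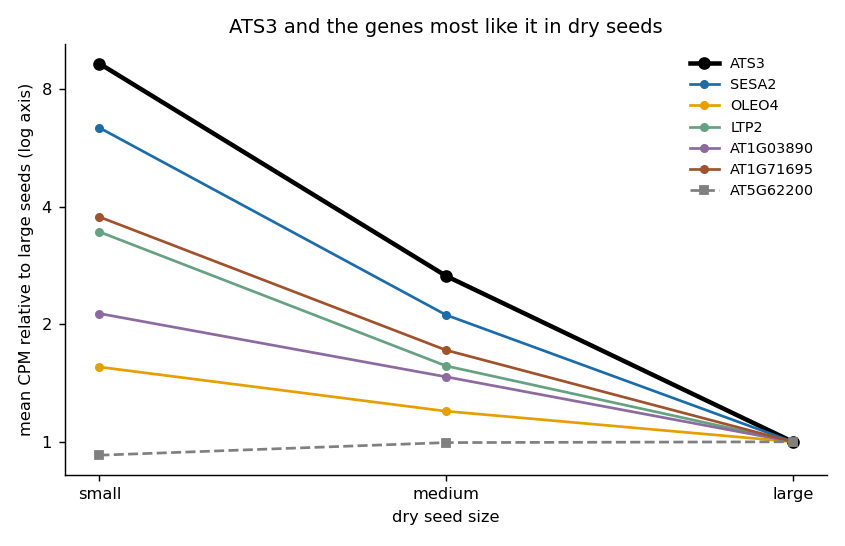
Mean CPM of *ATS3*, of the 5 genes most like it and of AT5G62200 in dry seeds of 3 sizes, each divided by its mean in large seeds, on a log axis (n = 4 libraries per size). *ATS3* has the steepest line, *SESA2* the next, and AT5G62200 lies close to 1 at every size.

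Of the 16 storage and oil body genes, 14 were called higher in small dry seeds against large ones and none lower, where 8.44% of all genes tested were higher and 6.24% lower, with a median log2 difference of 0.88 against -0.01 for all genes tested. With library totals 10 were higher and 1, the oleosin gene *OLEO3*, was lower, with a median of 0.51. The largest differences were those of *SESA2* at 3.05 (SE 0.19, FDR 2.67e-16) and *SESA1*, another 2S albumin gene, at 2.60 (SE 0.18, FDR 1.57e-14). Of the seed maturation regulators, 7 of 15 were tested and 1 was called, a share near the 14.7% of all genes. It was *EEL*, a bZIP factor gene, at 0.48 (SE 0.13, FDR 0.00992), a call lost with library totals, where *ABI5*, another bZIP factor gene, was called at -0.54 (FDR 0.000735). The only tested gene of the 3 stand-alone PLAT domain genes, *PLAT1*, did not pass the threshold (log2 difference 0.62).

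In imbibed seeds no difference of *ATS3* between small and large seeds passed the threshold. At 3d *ATS3* measured 30.8, 38.8 and 55.5 CPM in the 3 libraries of small seeds, against 48.0, 56.7 and 42.1 CPM in large seeds. The groups overlapped, with means of 41.7 ± 12.6 CPM for small seeds and 48.9 ± 7.32 CPM for large seeds (SD, n = 3 each). The log2 difference, small minus large, was -0.24 (SE 0.30, edgeR FDR 0.837), and 0.326% of 6754 genes tested were called in that comparison. Its 95% interval was -0.87 to 0.40. The tables of dry and imbibed seeds were made and normalised separately, from different seeds, so the change between them was not tested.

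Storage and oil body mRNAs at 3d made up 19.2 to 19.6% of counts in small seeds and 19.8 to 20.7% in large seeds. By edgeR none of the 16 genes was called between the sizes at 3d, and 1 had an unadjusted p under 0.05, as had 9.61% of all genes, in a wider set of 17652 genes with at least 0.1 count per seed. *SESA2*, the closest companion of *ATS3* in dry seeds, averaged 544 ± 60.9 CPM in small seeds and 543 ± 35.2 CPM in large ones at 3d (SD, n = 3 each).

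After 7 days of induction and 24 h in light, *ATS3* was low in seeds of both sizes. Small seeds at 7d + 24h had 10, 3 and 30 counts of *ATS3* in libraries 1 to 3, or 2.00, 0.590 and 7.52 CPM, and large seeds had 12, 10 and 9 counts, or 2.82, 2.33 and 1.54 CPM. Every library at 7d + 24h was below every library at 3d. In small seeds the means were 3.37 ± 3.66 CPM at 7d + 24h and 41.7 ± 12.6 CPM at 3d, and in large seeds 2.23 ± 0.645 CPM at 7d + 24h and 48.9 ± 7.32 CPM at 3d (SD, n = 3 each).

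*ATS3* fell by 4.73 on the log2 scale in small seeds (SE 0.40, edgeR FDR 4.75e-08). In large seeds it fell by 5.59 (SE 0.41, edgeR FDR 7.97e-09). Such calls were common, since 65.5% of tested genes were called in small seeds and 70.0% in large seeds. Among the 6754 genes of this set the fall of *ATS3* ranked 7 in each size. The set held only 3 of the 16 storage and oil body genes. In the wider set *ATS3* changed by -4.35 in small and -5.07 in large seeds, and the cupin AT1G03890 by -6.25 and -6.45. With library totals the differences of *ATS3* were -3.71 in small and -4.48 in large seeds, and both were called. The change of the size difference from 3d to 7d + 24h, the interaction of size and time, was 0.86 (SE 0.68, FDR 0.722), in a comparison that called 0.415% of genes.

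At 7d + 24h the difference between the sizes was 0.62 (SE 0.61, 95% interval -0.67 to 1.92, edgeR FDR 0.651), and 1.38% of genes were called in that comparison. It turned on library 3 of small seeds, which held 30 of the 43 *ATS3* counts of its group. That library also stood apart in its share of reads between genes, 13.5% against 7.69 to 9.81% in the other libraries at 7d + 24h, and in its storage and oil body mRNAs, 2.48% of counts against 1.48 to 2.09%; the part of these in the result was not tested. Without it the size difference was -0.63 (FDR 0.667), the interaction -0.40 (FDR 0.902) and the difference with time in small seeds -5.99 (edgeR FDR 6.59e-10).

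**Figure D3:**
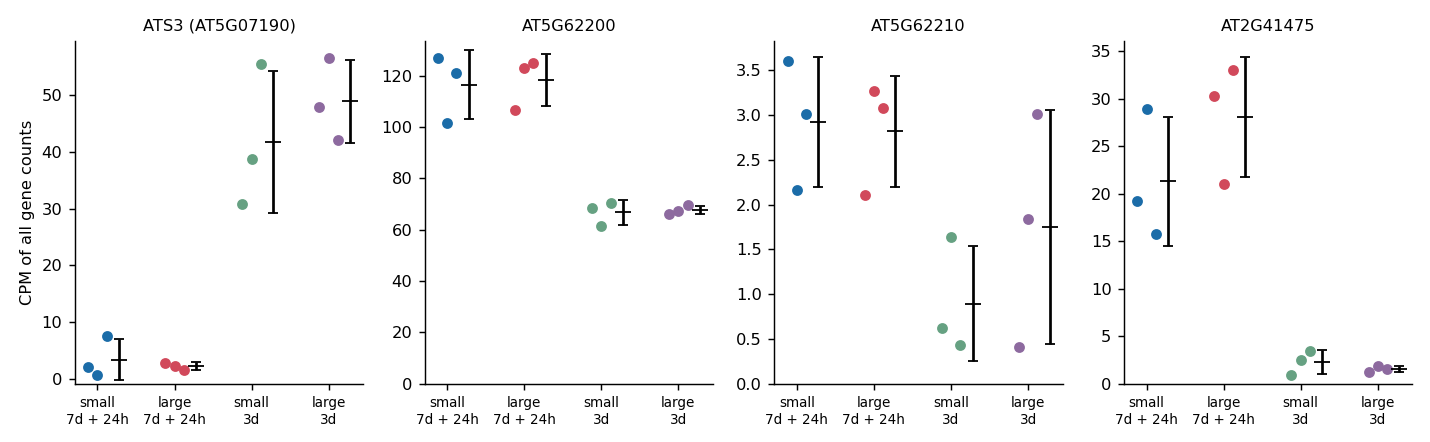
CPM of the 3 members and of the annotated relative AT2G41475 in the single-seed libraries. Points are libraries of 32 seeds, and the bars give mean ± SD (n = 3 per group); the lower end of a bar may pass 0. *ATS3* lies at or under 7.52 CPM at 7d + 24h and at or over 30.8 CPM at 3d, whereas AT2G41475 lies at or over 15.8 CPM at 7d + 24h and at or under 3.44 CPM at 3d.

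A count of *ATS3* was found in most single seeds at 3d and in fewer at 7d + 24h. At 7d + 24h the mean was only 0.448 count per seed in small and 0.323 in large seeds. At such means most seeds have 0 counts by counting alone, so these shares do not show mRNA confined to some seeds. At 7d + 24h, 20 of 96 small seeds and 23 of 96 large seeds had a count of *ATS3*, with at most 6 counts in a small and 2 in a large seed. At 3d, 81 of 96 small and 85 of 96 large seeds had a count, with a median of 2 and a maximum of 23 in small seeds and a median of 3 and a maximum of 16 in large seeds. Median depth was 114442.5 to 166749 counts per seed in the libraries at 7d + 24h and 60574.5 to 86274 at 3d, so the shares were lower where the depth was greater. Per library the share was 15.6, 6.25 and 40.6% in small seeds and 28.1, 21.9 and 21.9% in large seeds at 7d + 24h, against 84.4, 78.1 and 90.6% in small seeds and 87.5, 87.5 and 90.6% in large seeds at 3d. With every seed thinned to 20000 counts, where 1 count is worth about as much as the level of *ATS3* at 3d, the shares over 378 seeds were 10.5% in small and 5.21% in large seeds at 7d + 24h and 47.4% in small and 54.3% in large seeds at 3d.

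Seeds of a group varied in *ATS3* by more than independent counts would. Whether duplicate reads of a molecule were collapsed is not known, and such reads would raise this variance; their part was not tested. The variance of counts around what depth predicts was 2.99 times the counting variance in small and 1.71 times in large seeds at 7d + 24h, and 2.32 times in small and 1.79 times in large seeds at 3d. For AT5G62200 the same ratio was 3.61 in small and 3.99 in large seeds at 7d + 24h, and 1.23 in small and 1.33 in large seeds at 3d. Across the 96 seeds of a group, the Spearman correlation of *ATS3* CPM with AT5G62200 CPM was 0.03 in small and 0.33 in large seeds at 7d + 24h and 0.28 in small and 0.12 in large seeds at 3d, a weak relation in sparse counts that share each seed's depth. With the share of reads between genes, AT5G62200 CPM correlated by 0.304 in small and 0.535 in large seeds at 7d + 24h. At 3d the values were -0.21 in small and 0.007 in large seeds.

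**Figure D4:**
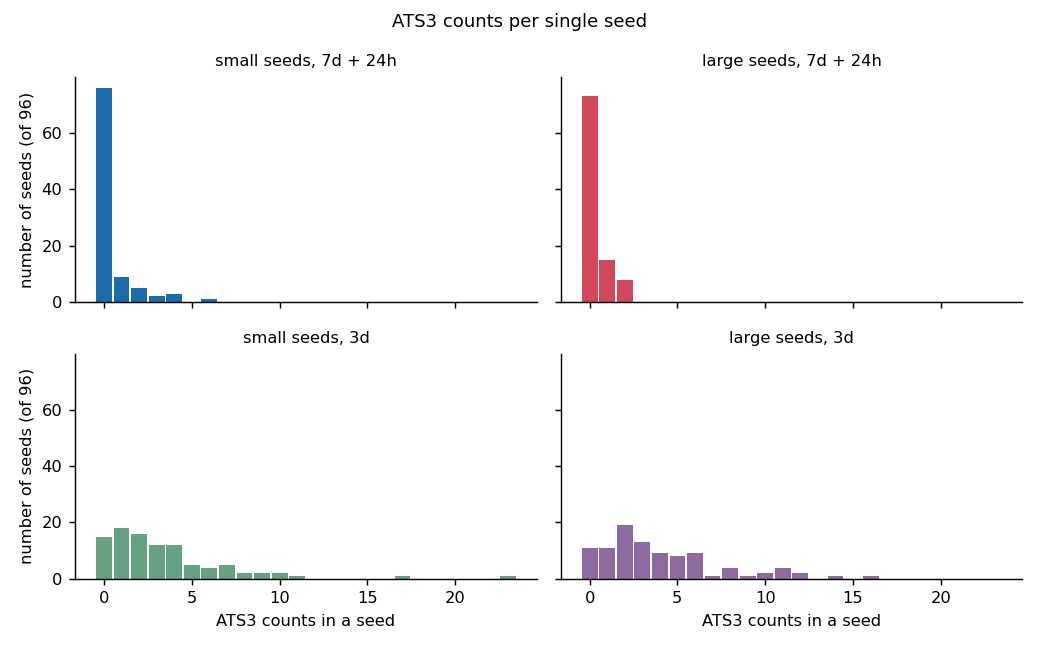
Number of seeds (vertical axis, of 96 per group) by the count of *ATS3* in the seed (horizontal axis). At 7d + 24h most small and large seeds have 0 counts and none has more than 6, whereas at 3d the counts reach 23 in small and 16 in large seeds.

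AT5G62200 showed no fall with time in imbibed seeds. It measured 127, 101 and 121 CPM in small seeds and 107, 123 and 125 CPM in large seeds at 7d + 24h. At 3d it measured 68.5, 61.3 and 70.5 CPM in small seeds and 66.3, 67.3 and 69.5 CPM in large seeds. Its share of all counts was thus higher in every library at 7d + 24h than in any at 3d, and the sizes overlapped at both times. In the main fit the gene was left out, since its share of counts followed the share of reads between genes (r up to 0.61 in a group, where at most 0.3 was allowed). In the wider set its log2 difference between 7d + 24h and 3d was 0.15 in small seeds (SE 0.13, edgeR FDR 0.331) and 0.21 in large seeds (SE 0.13, FDR 0.166), in comparisons that called 56.6% and 61.9% of genes.

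The call for AT5G62200 depends on the scaling. With library totals the difference was 0.80 in small seeds (FDR 2.73e-05) and 0.80 in large seeds (FDR 2.28e-05), while the median of all genes in the wider set moved to 0.73 and 0.67. The share of the gene in the counts rose about as much as that of the median gene. Between small and large seeds it differed by -0.02 at 7d + 24h (95% interval -0.27 to 0.24, FDR 0.961) and by 0.04 at 3d (-0.24 to 0.32, FDR 0.95), in comparisons that called 1.96% and 0.312% of genes. The interaction was -0.06 (FDR 0.945), where 0.283% of genes were called.

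The count of *ATS3* per count of AT5G62200, again free of scaling, was 0.0058 to 0.0621 in small and 0.0123 to 0.0264 in large seeds at 7d + 24h. At 3d it was 0.450 to 0.787 in small and 0.605 to 0.842 in large seeds. The ranges at 7d + 24h and at 3d did not overlap in either size, and those of small and large seeds overlapped at both times.

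AT5G62210 remained scarce. It had 18, 11 and 12 counts in small seeds and 9, 14 and 18 in large seeds at 7d + 24h, against 2, 4 and 1 in small and 1, 5 and 8 in large seeds at 3d. In CPM these came to 2.93 ± 0.726 in small and 2.82 ± 0.620 in large seeds at 7d + 24h, and to 0.896 ± 0.647 in small and 1.75 ± 1.30 in large seeds at 3d (SD, n = 3 each). With 0.268 count per seed on average it entered only the wider set, where the difference with time was 1.05 in small seeds (SE 0.61, edgeR FDR 0.156) and 0.09 in large seeds (SE 0.53, FDR 0.897). With library totals the difference in small seeds was 1.69 and was called (edgeR FDR 0.0242). No difference between the sizes was called (0.05 at 7d + 24h, FDR 0.966, and -0.91 at 3d, FDR 0.723).

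The annotated relative AT2G41475 moved opposite to *ATS3* with time. It had 96, 147 and 63 counts in small seeds and 129, 90 and 193 in large seeds at 7d + 24h, against 3, 6 and 8 in small and 3, 5 and 4 in large seeds at 3d. In CPM it averaged 21.3 ± 6.79 in small and 28.1 ± 6.28 in large seeds at 7d + 24h, and 2.28 ± 1.26 in small and 1.52 ± 0.310 in large seeds at 3d (SD, n = 3 each). It rose by 2.27 on the log2 scale in small seeds (SE 0.38, edgeR FDR 6.95e-05) and by 3.08 in large seeds (SE 0.40, FDR 4.25e-06). With library totals these were 3.30 and 4.17. With seeds thinned to 20000 counts the rise in small seeds was 1.34 and no longer called (edgeR FDR 0.124). Of the 6754 genes of the main fit, 33.1% rose in small and 34.1% in large seeds. Among them the rise of AT2G41475 ranked 384 in small and 241 in large seeds. The sizes did not differ past the threshold at 7d + 24h (-0.29, FDR 0.522) or at 3d (0.51, FDR 0.83). It was unevenly spread, for 40 of 96 small and 43 of 96 large seeds had a count at 7d + 24h, with up to 35 and 44 counts in a seed.

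**Figure D5:**
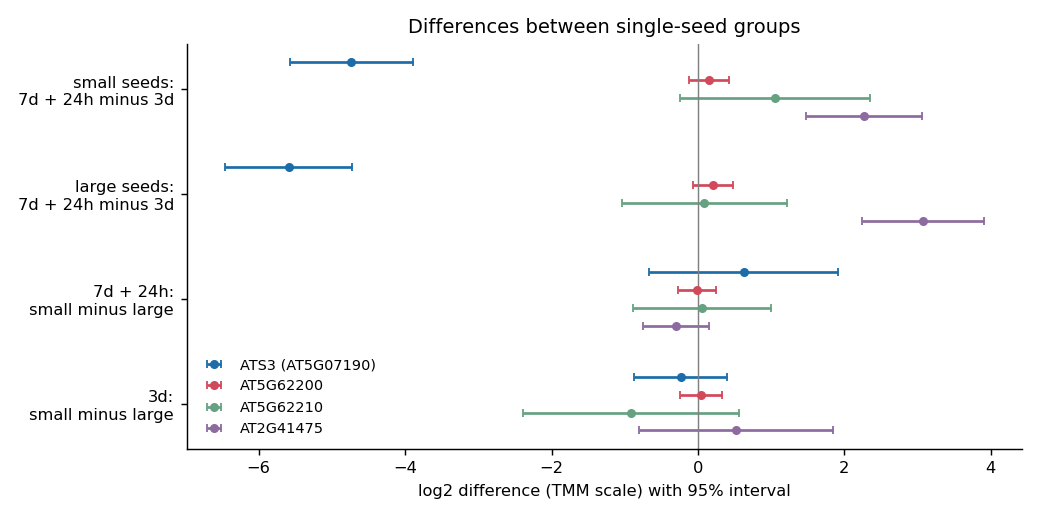
Log2 differences on the TMM scale (horizontal axis) with 95% intervals for the 3 members and AT2G41475, for 7d + 24h minus 3d in small and large seeds and for small minus large at 7d + 24h and 3d. The intervals of *ATS3* lie below 0 and those of AT2G41475 above 0 for both changes with time, and every interval of small minus large includes 0; AT5G62200 and AT5G62210 are from the wider set.

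Over the 12 single-seed libraries, the genes most like *ATS3* among 6148 compared were AT1G61240 (r = 0.99), *AP4.3A*, a protein kinase gene (0.99), AT3G54000 (0.99), *HUA2*, annotated as a Tudor/PWWP/MBT domain protein (0.99), and *PAP18*, a purple acid phosphatase gene (0.99). These libraries fall into 2 times, so r mostly reflects the direction of change between them on the TMM scale and not its size. The tested genes held 17.5 to 20.6% of counts at 3d and 43.6 to 53.3% at 7d + 24h. A gene steady in CPM thus falls on the TMM scale. In CPM *HUA2* averaged 28.2 in small and 30.1 in large seeds at 7d + 24h, against 32.2 and 33.3 at 3d. *AP4.3A* averaged 3.36 and 2.11 CPM at 7d + 24h, against 20.6 and 24.0 at 3d. AT2G41475 had r = -0.94. *SESA2* ranked 16th with r = 0.98.

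The gene groups around *ATS3* changed in different directions with time. In the wider set 14 of 16 storage and oil body genes fell in small seeds and 15 in large seeds, where 26.0% of all genes fell in small and 28.2% in large seeds, with medians of -3.32 and -3.53 against 0.08 and 0.08 for all genes tested. With library totals 13 fell in small seeds and 14 in large seeds, while *OLEO3* rose in both sizes and *ATS1* in small seeds. The steepest were the cupin AT1G03890 (-6.25 in small and -6.45 in large seeds) and *CRU2*, a cruciferin (-5.71 in small and -5.76 in large seeds). Of 11 seed maturation regulators tested, 7 fell and 1 rose in each size; the 8 called are near the 56.6% and 61.9% of all genes called in small and in large seeds. *FUS3*, a B3 activator gene of seed filling, fell by 3.65 in small seeds (SE 0.29, FDR 5.43e-08) and by 3.36 in large seeds (SE 0.29, FDR 9.39e-08). *BZIP53* fell by 1.34 in small seeds (FDR 4.31e-07) and by 1.31 in large seeds (FDR 4.15e-07), and *ABI4*, a gene of an AP2 factor of abscisic acid signalling, rose by 1.53 in small seeds (FDR 0.000184) and by 1.87 in large seeds (FDR 1.49e-05). With library totals these 3 kept their direction and call, but over the list 3 rose and 3 fell in small seeds, and 2 rose and 5 fell in large seeds, so in small seeds the balance of falls rests on the scaling. Of all genes of the wider set, 9621 then rose and 1656 fell in small seeds, and 9256 rose and 2301 fell in large seeds. *HSL1*, a B3 domain repressor gene, was among those that rose (0.87 in small and 0.97 in large seeds). Of the stand-alone PLAT domain genes, both tested rose, where 30.6% of all genes rose in small and 33.7% in large seeds. *PLAT2* rose by 3.51 in small seeds (SE 0.64, FDR 0.000235) and by 4.64 in large seeds (SE 0.58, FDR 4.76e-06), and *PLAT1* rose by 0.62 in small seeds (FDR 0.0112) and by 0.70 in large seeds (FDR 0.00395). By edgeR none of the genes of these 3 groups was called between the sizes in the wider set, while 5 storage and oil body genes, 3 regulators and 1 PLAT domain gene had an unadjusted p under 0.05 at 7d + 24h, against 18.2% of all genes. With library totals AT3G01570, an oleosin family gene, was higher in small seeds at 7d + 24h (0.47, FDR 0.0311), as was *EEL* (0.61, FDR 0.0455).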

How the data were processed

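Per the labels and the study's methods, 3′ RNA-seq reads were aligned by the authors to TAIR10 with STAR 2.7.8a; Seurat and DESeq2 are also named in the submitters' processing notes. The deposited values are raw counts per gene, in 1 column per dry library and 1 per seed. The counter, the annotation and whether molecular identifiers were collapsed are not given in the sources used here. Intervals of differences come from the edgeR fit and include the spread between libraries. The upper bound for AT2G41475 in medium dry seeds covers counting error only. Single-seed reads outside genes (9.76%) or ambiguous (0.256%) stayed out of library sizes.

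The 3 genes and all gene lists were chosen with earlier results of these data known. Counts of each library's 32 seeds were summed. edgeR 4.0.16 (quasi-likelihood, TMM, two-sided) was fitted to all 12 dry libraries (8234 genes after filterByExpr) and, separately, all 12 single-seed libraries. Single-seed genes were kept at 1 or more counts per seed on average and r of at most 0.3 with the share of reads between genes (6754 genes); a wider set, added after the data were seen, needed 0.1 count per seed (17652 genes). The 3 single-seed libraries of a group are divisions of 1 set of 96 seeds. The scripts were tested on simulated data. Correlations between libraries used log2 CPM of the tested genes on the TMM scale, with a prior count of 2. Correlations across seeds used CPM of all counts on genes. Shares of seeds were recomputed after thinning to 20000 counts. Besides the members and AT2G41475, the text names the up to 2 called genes per direction with the largest change in each list, the 5 genes most like *ATS3* in each table, and, chosen after their values were seen, AT3G60730, AT3G01570, *ATS1*, *OLEO3*, *ABI5*, *EEL* in single seeds and *PLAT1* in dry seeds.

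Dry libraries of the same number came from the same seed pool, and pairing was checked: deviations from the group means correlated by 0.016 on average (-0.050 to 0.12) within a pool and -0.0053 between pools. Gene positions, coding lengths and upstream bases are from RefSeq TAIR10.1; proteins were translated from its coding sequences and aligned globally. Alternatives comprised DESeq2 1.42.0, other scalings, filters, thinning, blocks and leaving out each library. Python 3.11.15 and R 4.3.3 were used.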

Additional observations from a re-analysis of the deposited data

Results flagged for a closer look

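Among 11 groups of 4 dry libraries checked for a library far from the others, 3 values stood apart. The rate of about 1 in 20 such groups by chance does not apply to AT2G41475. There a single count beside counts of 0 always stands apart. The large-seed library of pool 2 had the lowest *ATS3* level of its size, 5.77 CPM, against 19.0 to 20.1 CPM in the other 3 pools. It was also the deepest dry library, with 2079317 counts on genes. Without it the log2 difference was 3.30 between small and large seeds and 1.23 between medium and large seeds. For AT2G41475, the highest small-seed library, at 0.493 CPM, and the highest large-seed library, at 0.481 CPM, each rest on a single count where the other 3 libraries had 0. The single-seed groups of 3 were too small for this check, and no member's interaction of size and time passed the threshold.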

How the results depend on the processing

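The falls of *ATS3* with time kept their direction and call in 10 other settings and in 12 fits that left out 1 library; without 1 library they ran from -5.99 to -4.17 in small and -5.80 to -5.35 in large seeds. The dry-seed values of *ATS3* kept their sign, at 3.30 to 3.94, 1.91 to 2.23 and 1.23 to 1.87 without 1 library. Its size difference ran from -0.39 to -0.10 at 3d, from -0.63 to 1.19 at 7d + 24h and from -0.40 to 1.42 for the interaction. AT5G62200 lay too close to 0 for a stable sign. With library totals, chosen after seeing the data, it was -0.11, -0.10 and -0.012 between dry small and large, small and medium, and medium and large seeds, and -0.020 between the sizes at 3d. Its changes with time became 0.80 in both sizes (FDR 2.73e-05 and 2.28e-05). With thinning it was -0.14 between small and medium dry seeds, -0.26 at 3d and 0.25 for the interaction. With upper-quartile factors it was 0.019 at 7d + 24h and 0.017 for the interaction, and without the filter on reads between genes 0.0035 at 7d + 24h. Without 1 library it ran from -0.051 to 0.11 at 3d, from -0.12 to 0.080 at 7d + 24h and from -0.16 to 0.083 for the interaction. The exact test of AT5G62210 in dry seeds, with the seed pool as a replicate block, gave p = 0.125 and without it p = 0.0571. In single seeds AT5G62210 was -0.47 at 7d + 24h with thinning and 1.69 in small seeds with library totals; without 1 library it ran from -0.17 to 0.24 at 7d + 24h and from -0.35 to 0.61 for large seeds with time. The thinned rise of AT2G41475 in small seeds was 1.34.

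With the seed pool as a replicate block, AT5G62200 was 0.24 between small and large dry seeds (edgeR FDR 0.292) and *ATS3* 3.72; genes called between medium and large seeds numbered 24 against 12. With library number as a replicate block *ATS3* differed with time by -4.73 in small and -5.62 in large seeds, no member's call changed, and genes called between the sizes at 7d + 24h numbered 217 against 93. These numbers mark no shared batch in the labels, and same-numbered libraries correlated by 0.059 on average (-0.13 to 0.29). Counts of called genes moved by more than 1.5 times in other settings: 630 and 164 with thinned dry libraries (1209 and 289 before), 2756 and 723 with library totals, 8 to 325 at 3d (22), 53 to 1317 at 7d + 24h (93), 2426 to 9986 with time in small and 2828 to 11052 in large seeds (4424 and 4728), and 11 to 458 for the interaction (28). Without 1 library they ran from 747 to 1199, 119 to 394 and 5 to 30 in the dry comparisons, from 7 to 50 at 3d, from 9 to 196 at 7d + 24h and from 8 to 22 for the interaction. Without the filter on low counts 31 genes were called between medium and large seeds, and with thinning 7. At 3 to 30 *ATS3* counts per library at 7d + 24h, the edgeR interval of its size difference there was wide, -0.67 to 1.92. Size differences within that interval could not be decided at this depth. The dry-seed difference of 3.73 between small and large seeds is the value on which *ATS3* was chosen. It comes from other seeds, normalised separately, so it is not set against this interval. AT5G62210 in dry seeds rests on 0 to 12 counts per library.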

Other observations

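In single seeds at 7d + 24h, AT2G41475 was lower where the share of storage and oil body mRNAs was higher. At 3d its counts were too few for such a relation to be read. In the 96 seeds of a group, the Spearman correlation of its CPM with the share of storage and oil body counts was -0.34 in small and -0.66 in large seeds at 7d + 24h, and -0.11 in small and -0.10 in large seeds at 3d. For *ATS3* the same correlation was 0.30 in small and 0.46 in large seeds at 7d + 24h, and -0.22 in small and -0.19 in large seeds at 3d. *ATS3* CPM also correlated with the share of reads between genes at 7d + 24h, by 0.249 in small and 0.238 in large seeds. At 3d that correlation was -0.102 in small and -0.109 in large seeds, and its part was not tested. These are descriptions of seeds that share libraries and depth, with a count of 0 in most seeds at 7d + 24h for either gene. At 3d only 13 of 96 small and 9 of 96 large seeds had a count of AT2G41475, so its values at the 2 times cannot be compared. The counts of AT2G41475 varied between seeds of a group by 6.83 times the counting variance in small and 9.56 times in large seeds at 7d + 24h, against 2.99 and 1.71 times for *ATS3* in the same seeds. AT5G62200 was counted in all 96 small and all 96 large seeds at 7d + 24h, with a median of 16 counts in each size.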
